A study of Mus musculus with 2 samples.

Results

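Gkn1, the gene of gastrokine-1, was 1 of the 17139 genes measured in both libraries, and it was selected on its measured fall, the largest among the 6045 genes with at least 20 CPM (UMIs of the gene per 1000000 UMIs) in either library. The droplet-based scRNA-seq libraries held CD31+ live endothelial cells (ECs) sorted from implanted Lewis lung carcinoma (LLC) tumours of adult mice, C57BL/6 in the labels and male C57BL/6 J, implanted at 8 to 9 weeks of age, in the methods. One library came from 1 tumour injected with 70 µl of PBS, with 0 µg of cGAMP, and the other from 1 tumour injected with 14 µg of cGAMP, a cyclic dinucleotide that binds STING, in 70 µl. Sampling was 24 h after injection according to the methods and 6 h according to another legend, and the kit version differs between the methods and the labels. The PBS library held 2517 ECs with 92081146 UMIs and a median of 29780 UMIs per cell, and the cGAMP library 1340 ECs with 63366746 UMIs and a median of 41178. The libraries shared 1 cell barcode. Each group is 1 mouse, so nothing could be tested, and the 95% intervals, Poisson for levels and Clopper-Pearson for shares, cover counting error only. Intervals of levels and of log2 ratios treat each UMI as independent. They leave out the spread between cells and are too narrow where few cells hold many of the UMIs.

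Gastrokine-1 is a small secreted protein of the surface mucous cells of the stomach, where it is abundant and is often lost in gastric cancer. It belongs to a family of proteins with a BRICHOS domain, a fold found in proproteins that are cleaved on their way out of the cell. It is not a classical marker of ECs. Antxr1, which recurs below, encodes tumour endothelial marker 8, a receptor of anthrax toxin that binds collagen and is raised in vessels of tumours.

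On mouse build GRCm38 with the GENCODE vM21 annotation, Gkn1 (ENSMUSG00000030050.4) lies on the minus strand of chromosome 6 from 87345650 to 87350942. Its 1 annotated transcript has 6 exons and 1250 exon bases, of which 552 are coding and 628 form the 3′ UTR. No other annotated gene overlaps it (0 genes). The bases just upstream of its start are shown because the level of the gene differed so much between the libraries. They come from the RefSeq promoter table (GRCm38.p6, chr6:87350943-87351165, minus strand, 223 bases, 5′ to 3′), and capitals mark the match to the AP-1 motif TGANTCA.

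Gkn1 upstream: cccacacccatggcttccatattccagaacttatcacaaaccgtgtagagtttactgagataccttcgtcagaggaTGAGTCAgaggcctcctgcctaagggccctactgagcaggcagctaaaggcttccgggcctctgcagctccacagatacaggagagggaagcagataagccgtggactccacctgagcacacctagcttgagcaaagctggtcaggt

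The AP-1 match begins 147 bases before the start, and 6.19% of the 32851 promoter windows of the same length held one on either strand. No match was found to the interferon-stimulated response element GAAANNGAA (6.34% of windows), the gamma-activated site TTCNNNGAA (6.33%), the hypoxia response elements ACGTG (14.6%) and GCGTG (25.4%) or the TATA box TATAAA (10.2%). These are matches of letters on either strand, and binding was not measured.

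Gkn1 was present in a minority of PBS-treated ECs and in few cGAMP-treated ECs. The PBS library held 2249 Gkn1 UMIs, a level of 24.4 CPM (23.4 to 25.5), and the cGAMP library 271, a level of 4.28 CPM (3.78 to 4.82). The log2 ratio of cGAMP over PBS was -2.51 (-2.70 to -2.33), a level 5.71-fold lower, against a median of -0.05 over the 6045 genes. Of these genes 78, or 1.29%, were at least 2-fold lower. Because Gkn1 was selected on this contrast, the fall is a description of these libraries.

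A Gkn1 UMI was found in 590 PBS-treated ECs (23.4%, 21.8 to 25.1) and in 85 cGAMP-treated ECs (6.34%, 5.10 to 7.78). With every cell drawn down to 5000 UMIs, and 70 and 13 shallower cells left out, the shares were 8.75% (7.66 to 9.94; 214 of 2447 cells) and 1.73% (1.10 to 2.59; 23 of 1327 cells). As a background, Lyz2, a lysozyme of myeloid cells that ECs should lack, had a UMI in 2.37% and 5.65% of the thinned cells. The Gkn1 share of all cells was above the Lyz2 share in the PBS library and below it in the cGAMP library. In the cGAMP library the cells with Gkn1 were unevenly spread over the endothelial states described below. Unthinned, they were 34 of 186 tip-like ECs against 0 of 350 venous or stalk-like ECs, whose medians were 39880 and 40872 UMIs. Thinned, they were 8 of 184 (4.35%, 1.90 to 8.39) and 0 of 349. This tip-like share was not above the Lyz2 share of that library.

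Cells with Gkn1 held on average 3.81 UMIs with PBS and 3.19 with cGAMP, and the median was 2 in both libraries. In thinned cells with Gkn1 the means were 1.41 and 1.17, close to the 1 UMI that such a cell must have. In the PBS library 223 cells had 1 UMI, 222 had 2 to 4, 91 had 5 to 9 and 54 had 10 or more, up to 36. In the cGAMP library 42 cells had 1 UMI, 22 had 2 to 4, 17 had 5 to 9 and 4 had 10 or more, up to 19. The 25 PBS-treated ECs with most Gkn1 UMIs, 1% of the cells, held 22.3% of them, whereas the top 13 cGAMP-treated ECs held 45.8%.

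The sort on CD31 and the authors' removal of clusters without Pecam1, the gene of CD31, fixed the endothelial identity of the cells, and Pecam1 was detected alike in cells with Gkn1 (99.8% and 100%) and without it (99.6% in both libraries). The 4 epithelial or tumour markers measured, of 6 listed, summed to 2.15 CPM with PBS and to 0.39 CPM with cGAMP, where 2 of them were at 0. They were at 3.05 CPM in PBS-treated cells with Gkn1 and 1.73 CPM in those without it, and their part in the result was not tested. The 7 leucocyte markers summed to 25.03 CPM in PBS-treated cells with Gkn1 and 57.8 CPM in those without it. The 3 haemoglobin genes of the erythroid list summed to 284 CPM with Gkn1 and 13.2 CPM without it in the PBS library, but 5 cells held 97.8% of these UMIs, and without them the sums were 1.31 and 2.62 CPM. Cells with Gkn1 were deeper than the rest, with medians of 40720 and 27327 UMIs in the PBS library and 48642 and 40827 in the cGAMP library. In 5 equal bins of PBS-treated ECs by depth, the share with Gkn1 went from 8.93% in the shallowest to 40.4% in the deepest and the level from 14.7 to 27.1 CPM.

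Gkn1 stood nearly alone among the genes of the stomach mucosa. Of 23 listed genes 6 were measured, and Gkn1 was the only one with at least 5 CPM in either library. Its paralogue Gkn3 had 19 UMIs with PBS and 7 with cGAMP, the mucin gene Muc1 33 and 23, the mucin gene Muc6 8 and 0, the ghrelin gene Ghrl 25 and 12, and the gastrin gene Gast 3 and 3. Of 10 genes of BRICHOS proteins 6 were measured and 3 had at least 5 CPM, of which 1, Gkn1, was lower at all, where 59.6% of the 9508 genes with at least 5 CPM were lower, 1.69% were at least 2-fold lower and the median log2 ratio was -0.08. The membrane protein gene Itm2b went from 919 to 1537 CPM (log2 ratio 0.74) and its relative Itm2c from 545 to 554 CPM (0.02).

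The level of Gkn1 differed between the endothelial states. The cells fell into 8 clusters, made without Gkn1 and without variable genes that differed 2-fold between the libraries, and a cluster was named where at least 3 markers of a class were raised 2-fold and 1 was among its 10 leading genes. In the PBS library Gkn1 was highest in the tip-like clusters, whose cells lead vessel sprouts, at 43.0 CPM (39.7 to 46.5) in the cluster led by Gal and Chga and 43.0 CPM (37.3 to 49.3) in that led by Ankrd1 and Pgf. A cluster led by Ramp3 and Esm1, left unnamed because 0 of the markers were raised 2-fold in it although the tip-like markers Esm1 and Apln were among its leading genes, followed at 36.4 CPM (34.0 to 38.9). Its interval, of counting error alone, overlapped that of the Ankrd1 and Pgf cluster but not that of the Gal and Chga cluster. The tip-like clusters together held 36.7% of the Gkn1 UMIs of the PBS library in 20.1% of its cells, and the Ramp3 and Esm1 cluster held 37.3% in 22.8% of the cells.

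The proliferative clusters, in cells preparing for or passing through division, came next at 17.6 CPM (15.2 to 20.2) with Cenpf and Ube2c and 17.6 CPM (15.6 to 19.6) with Hist1h1b and Hist1h2ap, and did not differ beyond their intervals. Arterial ECs, led by the connexin gene Gja4 and by Nts, had 7.55 CPM (5.91 to 9.51), but 25.7 CPM, above the 17.2 CPM of proliferative ECs, when cells were assigned by marker ranks. Venous or stalk-like ECs, led by the chemokine receptor gene Ackr1 and the P-selectin gene Selp, had 0.94 CPM (0.45 to 1.73), or 10 UMIs in 5 of 374 cells. In a cluster led by Igfbp5 and Ctsh, 0 of 46 cells had a UMI, where 3 UMIs would be 2.92 CPM. It was left unnamed because its 10 leading genes held no venous or stalk-like marker, although 11 of 11 of these were raised in it.

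**Figure D1:**
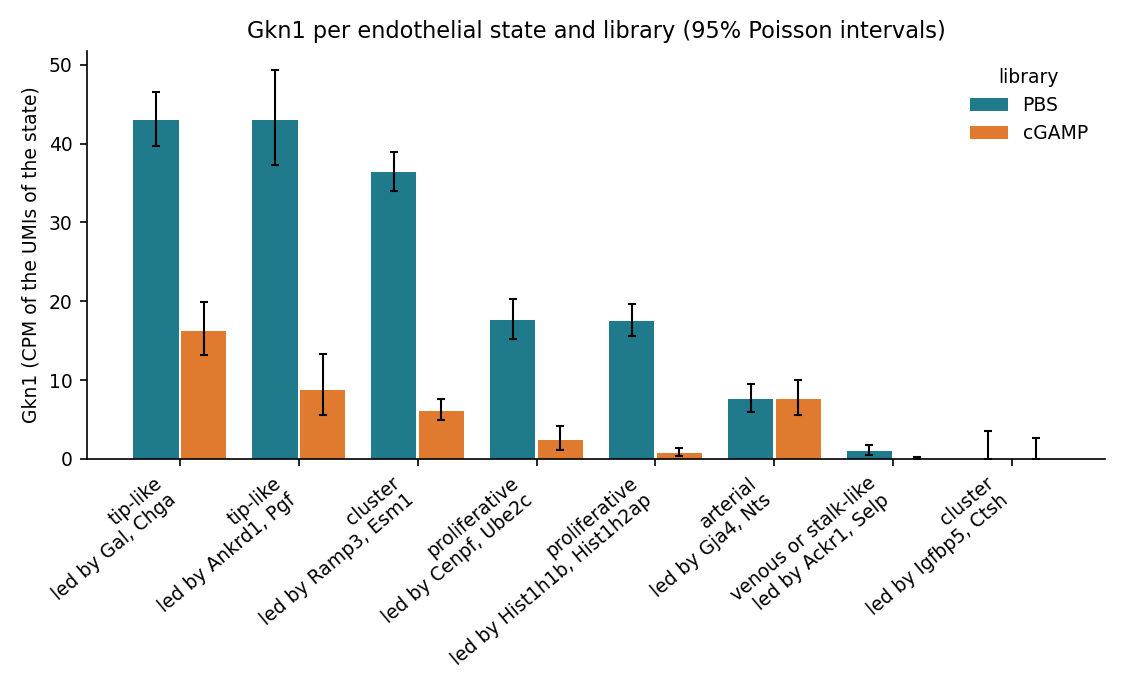
Gkn1 level in CPM of the UMIs of each state (vertical axis) in the 8 clusters of ECs (horizontal axis), with 1 bar per library and 95% Poisson intervals as error bars. The bars of the PBS library reach 43.0 CPM in the tip-like clusters, and the 2 bars of the arterial cluster are 7.55 and 7.57 CPM.

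Within the Ramp3 and Esm1 cluster the level was uneven. At the finer resolution of 1.2, a cluster led by Esm1, Mfap3l, Apln and Antxr1 had 50.2 CPM (46.7 to 54.0) in 333 PBS-treated ECs, and one led by Ramp3, Gdf15, Irx3 and Ccl4 had 8.71 CPM (7.04 to 10.7) in 318. Esm1 and Apln are known as genes of tip cells. In the cGAMP library these clusters had 7.94 and 0.69 CPM.

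Between the libraries Gkn1 was lower in the tip-like, proliferative and Ramp3 and Esm1 clusters. In tip-like ECs it went from 43.0 to 13.99 CPM (log2 ratio -1.62, -1.91 to -1.34), and a UMI was found in 216 of 506 and 34 of 186 cells. The log2 ratio of tip-like ECs was -2.15 at resolution 0.3 and -2.51 by marker ranks. In the Ramp3 and Esm1 cluster it went from 36.4 to 6.11 CPM (-2.58, -2.91 to -2.25), from 189 of 574 to 30 of 263 cells. In proliferative ECs it went from 17.6 to 1.203 CPM (-3.87, -4.59 to -3.23), from 141 of 655 to 10 of 298 cells. Cluster by cluster, the intervals of the tip-like ECs led by Ankrd1 and Pgf (-2.998 to -1.65) and the proliferative ECs led by Cenpf and Ube2c (-3.92 to -2.03) overlapped. In venous or stalk-like ECs of this clustering it went from 10 UMIs, 0.94 CPM (0.45 to 1.73), to 0 UMIs (0 to 0.22 CPM), where 3 UMIs would be 0.18 CPM. The size of this difference cannot be given from so few UMIs. The 10 UMIs lay in 5 cells, 4 of them in 1 cell, and venous or stalk-like ECs of the PBS library had 0 Gkn1 UMIs at resolution 1.2 and without integration, against 0 and 1 in the cGAMP library.

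In the arterial cluster no difference beyond counting error was seen, with 7.55 CPM from 72 UMIs and 7.57 CPM from 50 UMIs, with a log2 ratio of 0.00 (-0.55 to 0.54). The share of cells with a UMI was 10.8% (39 of 362) in the PBS library and 5.73% (11 of 192) in the cGAMP library, and 5 cells held 82% of the 50 UMIs. The log2 ratio depended on how cells were assigned. It was 0.60 (0.05 to 1.15) with the libraries not integrated and -1.17 (-1.50 to -0.85) with cells assigned by marker ranks without clustering. At resolution 1.2, arterial ECs led by Gja5, Gja4, Mal and Mgp went from 9.26 to 14.3 CPM (0.62, 0.10 to 1.14). The latter level came from 58 UMIs in 12 cells. Those led by Slc6a6, Lpl, Clic5 and Nts had 0 Gkn1 UMIs in 72 PBS-treated and 68 cGAMP-treated ECs. With the state proportions of both libraries held equal, Gkn1 was 20.5 CPM in the PBS library and 5.09 CPM in the cGAMP library (log2 ratio -2.01).

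Antxr1 was the gene most like Gkn1 across the 2517 PBS-treated ECs, among 10024 genes with a UMI in at least 10% of them. Pearson's r of the deposited log values was 0.49 for Antxr1, against a median of -0.002 and a 99th percentile of 0.20 over these genes. It was followed by Fn1, the gene of fibronectin, at 0.39, the predicted gene Gm37800 at 0.37, Esm1, which encodes the proteoglycan endocan, at 0.35, and Nox4, which encodes an NADPH oxidase, at 0.32. Lgals1, the gene of galectin-1, was at 0.32, Cpe, which encodes carboxypeptidase E, at 0.31, and Clca2, Lcp2 and Ildr2 between 0.30 and 0.31. The lowest values were -0.35 for Lrg1, -0.29 for the fatty acid carrier gene Cd36, -0.28 for the apelin receptor gene Aplnr, and -0.26 for both the prostaglandin transporter gene Slco2a1 and Csf2rb, a gene with a similar copy whose counts are uncertain. Lrg1 and Slco2a1 are among the venous or stalk-like markers.

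These cells share 1 library and differ in depth, so that r describes that library. With each cell thinned to 5000 UMIs, r was 0.23 for Antxr1, which then ranked 3, and Esm1 was first at 0.26. With log values centred on the mean of each state, Antxr1 stayed first at 0.45 and Fn1 was at 0.33. Across the 1340 cGAMP-treated ECs, which the choice of these genes did not use, Antxr1 was again first of 10283 genes at r = 0.56, and the next gene was at 0.32. Of the 10 genes with the highest r in PBS-treated ECs, 10 were above 0 and 9 were among the 100 highest in cGAMP-treated ECs, and the 5 lowest were all below 0.

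**Figure D2:**
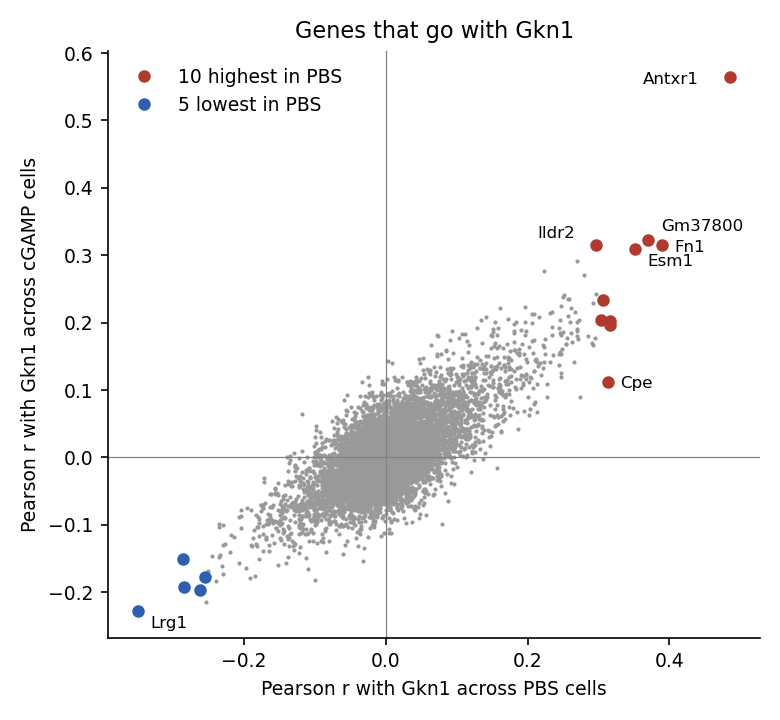
Pearson's r with Gkn1 of each gene with a UMI in at least 10% of the cells of both libraries, across PBS-treated ECs (horizontal axis) and cGAMP-treated ECs (vertical axis), with 1 point per gene. The 10 highest and 5 lowest genes of the PBS library are coloured, and Antxr1 stands apart at 0.49 and 0.56.

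All 10 genes were lower in the cGAMP library, 6 of them at least 2-fold, with a median log2 ratio of -1.12. Among the 10024 genes 61.0% were lower, 1.81% were at least 2-fold lower and the median was -0.09. Antxr1 went from 30.9 to 8.41 CPM (-1.88), Fn1 from 215 to 60.5 CPM (-1.83), Ildr2 from 28.9 to 9.61 CPM (-1.59), Cpe from 41.1 to 14.3 CPM (-1.52) and Esm1 from 332 to 202 CPM (-0.71). Of the 100 genes with the highest r, 86 were lower and 21 at least 2-fold, with a median of -0.48. Antxr1, Fn1 and Ildr2 were also among the 10 largest falls, with S100a4 (-2.29), the oxygen-sensing prolyl hydroxylase gene Egln3 (-2.19), Gm47283 (-2.08), the Wnt modulator gene Dkk2 (-1.88), Ccdc88c (-1.73) and Cd109 (-1.62). Across PBS-treated ECs S100a4 and Dkk2 had r of -0.05 and -0.04 with Gkn1, so that a large fall did not go with likeness to Gkn1 in every gene.

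Over the 16 points given by 8 clusters and 2 libraries, the genes whose log2(CPM + 5) was most like that of Gkn1 were Gdi2 (r = 0.92), Il16 (0.92), Antxr1 (0.92), Prrg3 (0.91) and Arhgap25 (0.90), of 6044 genes. Gdi2 nevertheless went only from 328 to 282 CPM between the libraries.

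Antxr1 is also the nearest on the chromosome of the genes measured here, and annotated genes that were not measured were left out. It lies on the same strand (chromosome 6, 87133853 to 87335821), and 9.83 kb separate its start from the 3′ end of Gkn1. Among the other neighbours with at least 100 UMIs in the PBS library, Aak1 had a log2 ratio of -0.38, Nfu1 0.36, Gfpt1 -0.09, Arhgap25 -0.45, Prokr1 -0.09 and Aplf 0.32. Their r with Gkn1 lay between -0.05 and 0.10 across PBS-treated ECs. Arhgap25 is, however, the gene named above that ranked 5 in likeness to Gkn1 over clusters and libraries (r = 0.90, against 0.92 for Antxr1). Of these 7 genes Antxr1 alone was at least 2-fold lower, where 1.69% of the 9508 genes with at least 5 CPM were. Transcripts that span both genes were not analysed here.

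**Figure D3:**
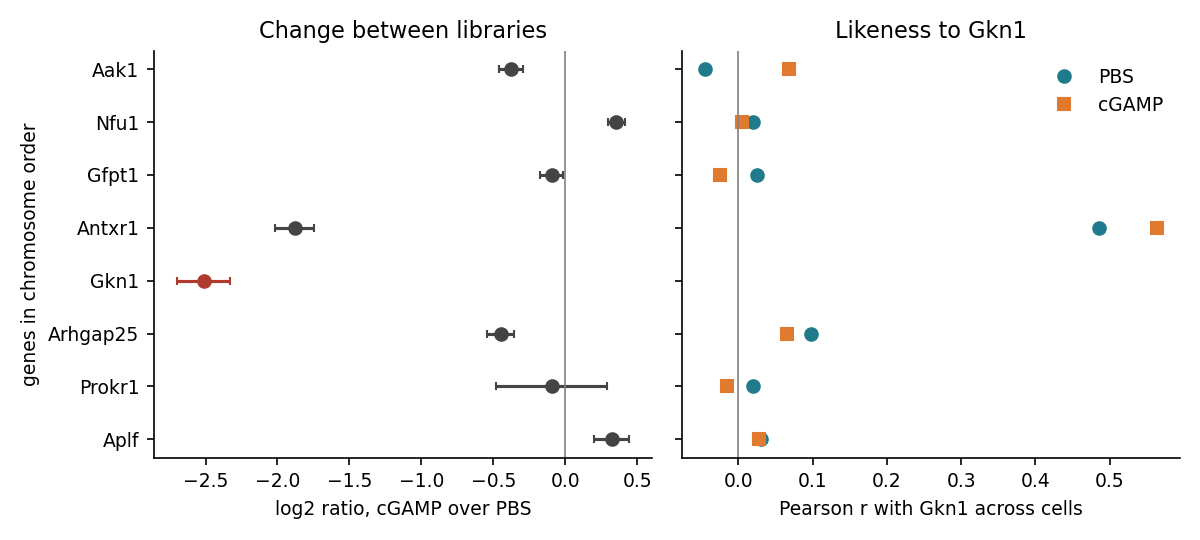
Genes around Gkn1 in chromosome order (vertical axis) with their log2 ratio of cGAMP over PBS and its 95% interval (left) and their Pearson r with Gkn1 across the cells of each library (right). Antxr1 lies at -1.88 and at r of 0.49 and 0.56, and the r of the other neighbours is at most 0.10.

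In single cells at full depth, without thinning, Gkn1 was mostly found with Antxr1. An Antxr1 UMI was present in 493 of the 590 PBS-treated ECs with Gkn1 (83.6%, 80.3 to 86.5) and in 70 of the 85 cGAMP-treated ECs with Gkn1 (82.4%, 72.6 to 89.8), where 39.5% and 17.4% of all cells had one. Of the ECs with Antxr1, 493 of 995 had Gkn1 after PBS and 70 of 233 after cGAMP. Among all cells 23.4% and 6.34% had Gkn1, so that Gkn1 was also more frequent in cells with Antxr1. These shares are lower than those in cells with Gkn1 because more cells had Antxr1 than Gkn1. No asymmetry between the genes can therefore be read from them. In cells thinned to 5000 UMIs, Antxr1 was found in 31.3% of PBS-treated ECs with Gkn1 and 9.58% of those without it, and in 34.8% and 2.68% of cGAMP-treated ECs.

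Gkn1 was higher in cells with Antxr1. Cells were classed by their Antxr1 UMIs after thinning to 5000 UMIs, and Gkn1 was counted from all UMIs of these cells. In PBS-treated ECs with 0, 1 and at least 2 such Antxr1 UMIs, Gkn1 was 19.4, 49.6 and 113 CPM. In cGAMP-treated ECs it was 2.69, 47.5 and 43.1 CPM, the last from 3 cells. Between the libraries Gkn1 in cells with at least 1 of these Antxr1 UMIs went from 62.0 CPM in 281 cells to 47.3 CPM in 43 cells (log2 ratio -0.39, -0.70 to -0.09). With cells classed by all their Antxr1 UMIs it went from 44.5 to 18.1 CPM (-1.30), so that the size of this difference rested on the thinning. In cells with no Antxr1 UMI it went from 4.20 to 0.38 CPM without thinning (-3.45).

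The states did not order both genes alike. Arterial ECs of the PBS library had 36.2 CPM of Antxr1, near the 40.3 CPM of the Gal and Chga cluster, but 7.55 CPM of Gkn1 against 43.0 CPM. This contrast holds for the clusters, since Gkn1 was 25.7 CPM in arterial and 43.0 CPM in tip-like ECs by marker ranks. In the arterial cluster Antxr1 went from 36.2 to 11.4 CPM between the libraries (-1.67, -2.05 to -1.31), whereas the log2 ratio of Gkn1 was 0.00. In arterial ECs assigned by marker ranks that of Gkn1 was -1.17 (-1.50 to -0.85), so that this contrast too holds for the clusters. In proliferative ECs led by Hist1h1b, Antxr1 went from 21.1 to 3.26 CPM and Gkn1 from 17.6 to 0.75 CPM.

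Gkn1 was highest in cells with most RNA of the tip-like markers. Cells of each library were put in 5 equal bins by the share of UMIs from these 11 genes. From the lowest to the highest bin Gkn1 was 1.28, 6.24, 16.9, 31.6 and 51.3 CPM in PBS-treated ECs and 0.32, 1.97, 2.51, 3.45 and 11.5 CPM in cGAMP-treated ECs. The tip-like markers include Esm1, one of the genes most like Gkn1. With bins by the 12 hypoxia genes, Gkn1 was 13.0 CPM in the lowest and 40.9 CPM in the highest bin of PBS-treated ECs, and 1.49 and 8.46 CPM in cGAMP-treated ECs. With bins made within each state the values were 21.6 and 30.8 CPM in PBS-treated ECs and 3.88 and 3.54 CPM in cGAMP-treated ECs, without a rise in the latter. Of the 10 hypoxia genes with at least 5 CPM, 9 were lower in the cGAMP library and 1, Egln3, at least 2-fold, with a median of -0.45, where 59.6% of the 9508 genes were lower, 1.69% at least 2-fold, and the median was -0.08.

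Interferon genes were higher in the cGAMP library and hardly correlated with Gkn1 from cell to cell. All 30 interferon genes were higher in the cGAMP library, 20 of them at least 2-fold, where 1.82% of the 9508 genes were, and their median log2 ratio was 1.35. Irf7, the interferon regulatory factor, went from 82.7 to 651 CPM (2.98), and Isg15, a ubiquitin-like modifier, from 247 to 814 CPM (1.72). Across PBS-treated ECs the r of the 30 genes with Gkn1 lay between -0.12 (Iigp1) and 0.10 (Bst2). Across cGAMP-treated ECs it lay between -0.11 (Iigp1) and 0.07 (Bst2).

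By 5 bins of the interferon share, Gkn1 was 19.5, 25.8, 23.8, 28.7 and 24.2 CPM in PBS-treated ECs, and the highest bin was not below the lowest. With bins made within each state it was 18.8, 24.3, 28.9, 29.9 and 19.8 CPM, so that the highest bin was near the lowest and below the third and the fourth. In cGAMP-treated ECs it was 3.97, 5.13, 6.50, 4.28 and 1.80 CPM, lowest in the highest bin, from 24 UMIs. With bins made within each state it was 3.82, 5.87, 5.04, 5.72 and 1.11 CPM there, the last from 15 UMIs. The log2 ratio of the highest over the lowest bin of the cGAMP library was -1.14 (-1.91 to -0.41), and -1.78 (-2.73 to -0.91) within states. The lowest bin of the cGAMP library had a median of 31.9 interferon UMIs per 10000 and 3.97 CPM of Gkn1, and the highest bin of the PBS library had 49.0 and 24.2 CPM. These bins also differ in mouse and library, and the part of interferon in the level of Gkn1 was not tested.

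**Figure D4:**
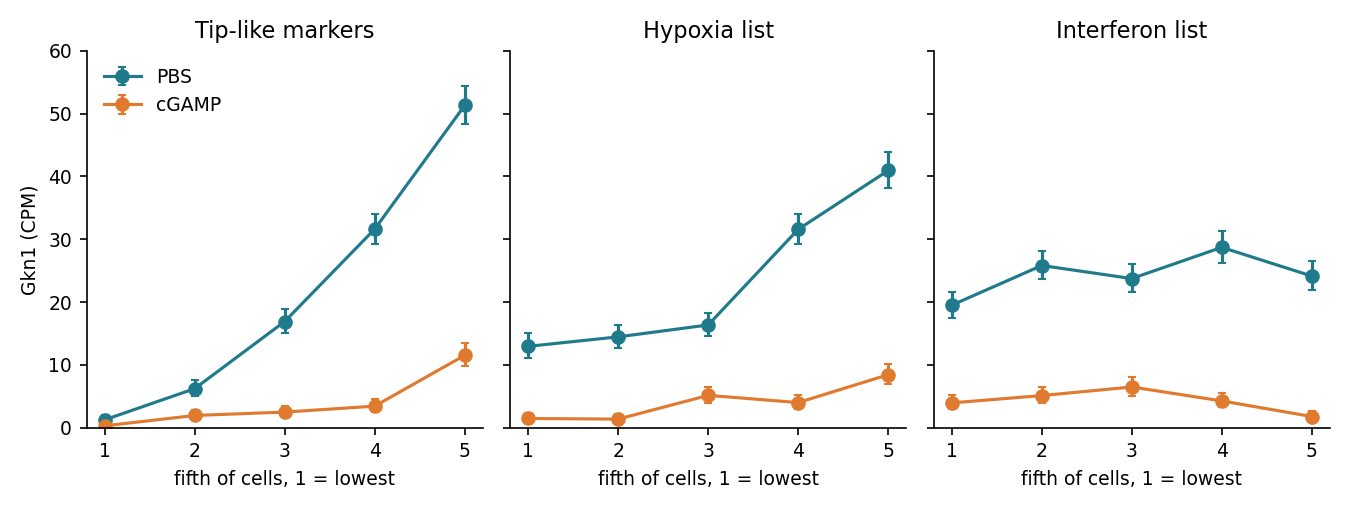
Gkn1 level in CPM (vertical axis, 95% Poisson intervals) in 5 equal bins of the cells of each library, from lowest to highest share of UMIs of the tip-like markers, the hypoxia list and the interferon list (horizontal axes). In PBS-treated ECs Gkn1 goes from 1.28 to 51.3 CPM along the tip-like markers, and from 19.5 to 24.2 CPM along the interferon list.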

How the data were processed

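Reads had been mapped to mm10 by Cell Ranger 3.0.0, and the authors then used Seurat 3.1.1 to keep cells of at least 500 genes and at most 10% mitochondrial UMIs, genes seen in 3 or more cells, and clusters with Pecam1. They deposited natural log values, ln(1 + x), where x scales a gene's UMIs to a cell total of 10000. UMIs were recovered by undoing this per cell, and 100% of the values above 0 lay no more than 0.01 from whole numbers. The filters of the authors could not be relaxed, and doublets were not removed.

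Levels are UMIs summed over cells, in CPM, compared as log2 ratios with exact conditional intervals. Cells were clustered in R 4.3.3 with Seurat 5.3.0 at resolution 0.5 after integration, and rebuilt names need not be those of the study. Venous or stalk-like, tip-like, proliferative and arterial markers named clusters by thresholds that were set with the clusters known. Other calculations used Python 3.11.15, numpy 2.4.6 and scipy 1.17.1, and figures matplotlib 3.10.9.

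The gene, the lists and the tests were chosen with earlier results of these data known. Genes named were Gkn1, 4 lists (stomach mucosa, BRICHOS, interferon and hypoxia) and the 5 nearest measured genes on each side. Also named were the 10 highest and 5 lowest r across PBS cells, the 5 most alike over clusters and the 10 largest falls. Leading genes of clusters were named after their values were seen.

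The log2 ratio of cGAMP over PBS was tested on simulated data for 9309 genes, of which 200 were changed. For these, 89.5% of ratios lay within 0.1 of the truth and 92.5% of intervals held it. Library totals were drawn from the Poisson model that the intervals assume, with no spread between cells. The simulation therefore cannot show how the intervals behave for UMIs clumped in few cells. The first criterion, more than 90% within 0.1, was missed, and in genes of 5 to 10 CPM 71.1% came so close, where counting noise alone allows 71.5%. It was replaced after that run by a criterion on the intervals and the mean error. Alternatives were other scalings, cell filters, thinning, clusterings and correlations, and those on Antxr1 classes and on the top arterial cell were added after the data were seen.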

Additional observations from a re-analysis of the deposited data

How the results depend on the processing

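The log2 ratio of Gkn1 was -2.01 with state proportions held equal and -3.04 without the 1% of cells with most Gkn1 UMIs, and stayed negative in every alternative run. The share of genes at least 2-fold lower was 1.7% with a minimum of 5 CPM and 4.94% with none. The share of cells with Gkn1, which differed by -7.01 percentage points after thinning, differed by -17.1 points unthinned, -9.74 at 10000 UMIs and -2.07 for at least 2 UMIs. In tip-like ECs the log2 ratio was -2.15 at resolution 0.3 and -2.51 by marker ranks. In arterial ECs it was 0.60 without integration, -1.17 by marker ranks and -0.22 without the top cell of each library. In cells with Antxr1 it was -1.30 and in cells without it -3.45 when cells were classed by all Antxr1 UMIs, against -0.39 and -2.86 when classed after thinning. The r of Antxr1 was 0.23 thinned, 0.52 as Spearman's rho and 0.45 centred on states, and of the 10 genes with the highest r, 5, 9 and 8 remained among the 10. The log2 ratio of Gkn1 between the highest and lowest interferon bins of the PBS library, 0.31, was 0.028 thinned and 0.074 within states. That of the cGAMP library, -1.14, was -0.99 (-3.62 to 1.23) thinned and -1.78 within states. Where a value moved, the cause was not tested.

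No paired analysis was possible because each group has 1 library. The mouse, the library and the treatment cannot be told apart. The values of venous or stalk-like, arterial and proliferative cGAMP-treated ECs rest on 0, 50 and 20 Gkn1 UMIs, although these cells were deeper than those of the PBS library.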
